A study of Mus musculus with 8 samples.

Results

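Expression of 10 genes of the hepatic acute-phase response was compared between livers of New Zealand Obese (NZO) and B6 mice. The genes were Saa1, Saa2, Saa3, Saa4, Orm1, Orm2, Hp, Hpx, Lcn2 and Apcs, and they were taken by the gene name that the array files give. Each was read by 1 probe of 60 bases, so that 10 of the 55681 probes of the array were members. All 10 were well above background on all 8 arrays and were among the 27651 probes that entered the test. NZO livers came from the strain NZO/HiBomDife and B6 livers from C57BL/6, whose substrain is not given. The animals of both strains were male and 6 weeks old and had a diet with 45% fat. Each strain had 4 mice with 1 array each, and a mouse is named here by its strain and its number (NZO 003, 007, 009 and 011, and B6 009, 010, 011 and 015). NZO is an inbred model in which obesity and diabetes arise from many loci, and a difference between the strains cannot be assigned to any of them or to body weight. The labelled tissue was borne out by hepatocyte markers, with albumin (Alb) between 10.66 and 11.24 on the log2 scale used here and 0 of 5 hepatocyte genes called different.

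The acute-phase response is the change in liver secretion that follows infection, injury or inflammation. Interleukin 1, interleukin 6 and tumour necrosis factor reach the hepatocyte, where STAT3, NF-kB and the C/EBP factors raise transcription of the positive acute-phase genes, while negative acute-phase genes such as albumin and transthyretin are turned down. The products bind lipids, haem, haemoglobin, iron carriers or microbial surfaces. In the mouse, Saa1 and Saa2 are the strongly inducible forms of serum amyloid A, and serum amyloid P (Apcs) takes much of the place that C-reactive protein has in man.

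Levels are given as log2 of the processed signal minus the 75th percentile of the same array, so that 0 is a signal equal to that percentile and 1 unit is a doubling. They compare mice for 1 probe and do not rank genes, because probes differ in efficiency. A gene was called when the p-value from limma, adjusted over all tested probes (Benjamini-Hochberg), was at most 0.05 and the log2 fold change (NZO minus B6) was at least 0.7 in size. The liver was measured as a whole, so fewer cells of a type and less RNA per cell cannot be told apart.

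Of the 10 members, 1 was called higher in NZO (Apcs) and 3 were called lower (Lcn2, Orm1 and Orm2). Over all tested probes, 4.34% were called higher and 5.29% lower. The strains did not overlap for the same 4 genes: all NZO mice were above all B6 mice in Apcs, which held for 11.3% of tested probes, and all were below in Lcn2, Orm1 and Orm2, which held for 10.7%. With limma's p-value before adjustment and the same fold limit, Saa2 and Saa3 joined those 3 genes, giving 5 lower and 1 higher, against 7.08% and 5.16% of all tested probes. The median log2 fold change of the members was -0.74, against 0.01 over all tested probes, and -0.81, -0.85 and -0.99 with normexp background correction, quantile normalization and the deposited table, which put the median of all tested probes at 0.04, 0.00 and -0.15.

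1 mouse, B6 015, stood apart in these genes. It was the highest of the 4 B6 mice in 10 of 10 members, while 25% of the tested probes had their highest B6 value in this mouse. The same held in 16 of 22 other positive and 8 of 9 negative acute-phase genes that were tested. It held in 4 of 5 macrophage and 5 of 7 neutrophil markers, so this was not particular to the members. In cytokine receptors it held in 2 of 7, and in red cell markers in 0 of 4. In 9 of 10 members (all but Apcs) B6 015 was the highest of all 8 mice, against 10.4% of tested probes. Its median deviation from the B6 median was 0.93 over the members and -0.01 over all tested probes. The lowest B6 value was that of B6 010 in 8 of 10 members, against 29.8% of tested probes. Without B6 015 the median log2 fold change of the members was -0.54, and of the 4 calls those of Apcs and Lcn2 held, while Orm1 and Orm2 came under the fold limit. Fold changes without this mouse, from a fit on the other 7 arrays, are given beside the results for the members and for the called genes of the other lists.

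**Figure D1:**
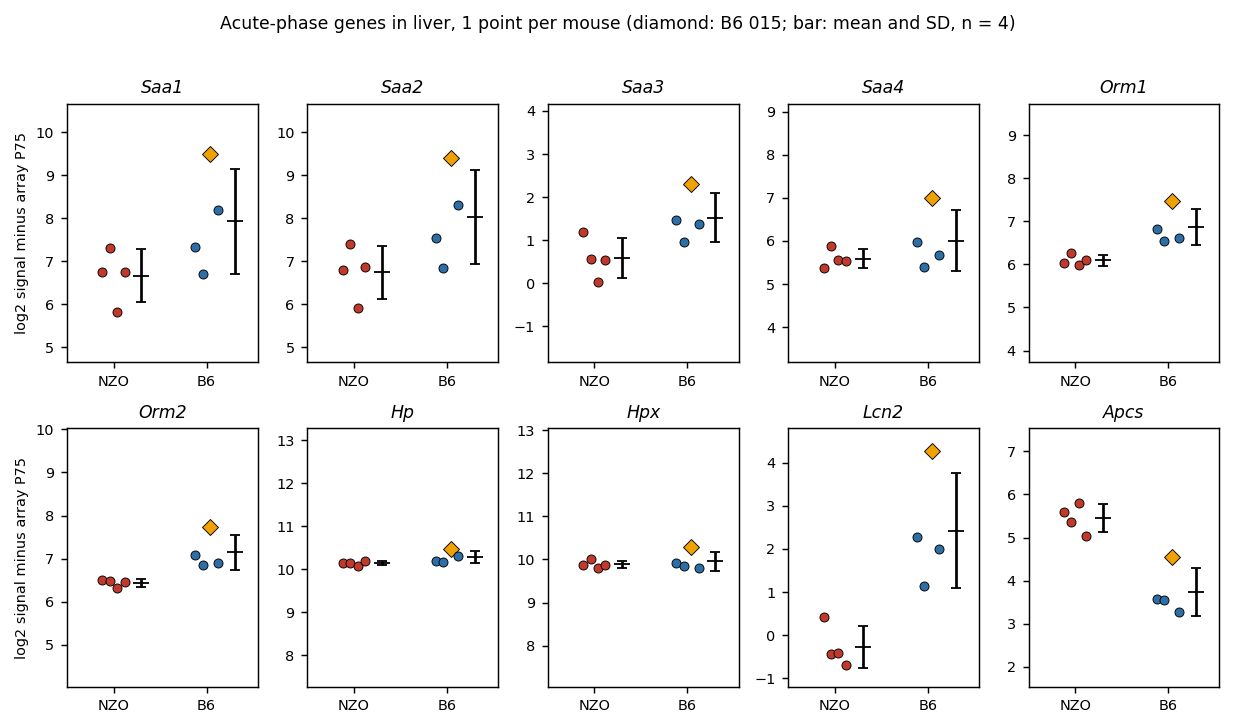
Level of each of the 10 genes in every mouse (log2 of the processed signal minus the 75th percentile (P75) of the array; every panel spans the same 6 units). Circles are mice, the orange diamond is B6 015, and the bars are the mean and SD of 4 mice. The strains are apart in Orm1, Orm2, Lcn2 and Apcs, and the diamond is the highest B6 point in every panel.

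The serum amyloid A genes encode small apolipoproteins that travel on high-density lipoprotein. They lie next to each other on chromosome 7 (GRCm38.p6), Saa3 at chr7:46711998-46719615, Saa4 at chr7:46727992-46732603, Saa1 at chr7:46740497-46743181 and Saa2 at chr7:46751833-46754313. None of the 4 was called, although the NZO mean was below the B6 mean in each. The level of Saa1 was 6.76, 7.31, 5.83 and 6.75 in NZO 007, 003, 009 and 011, and 7.33, 6.70, 9.49 and 8.19 in B6 011, 010, 015 and 009. The strains overlapped, with NZO below B6 in 13 of the 16 pairs of mice, and the range within B6 (2.80) was wider than the difference of the means. The means were 6.66 ± 0.61 in NZO and 7.93 ± 1.21 in B6 (SD, n = 4 each), a log2 fold change of -1.26 (SE 0.58, 95% interval -2.61 to 0.08, limma adjusted p = 0.205). Without B6 015 it was -0.74 (adjusted p = 0.340).

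Saa2 had nearly the same order of mice. Its level was 6.79, 7.39, 5.91 and 6.87 in NZO 007, 003, 009 and 011, and 7.55, 6.85, 9.41 and 8.30 in B6 011, 010, 015 and 009. NZO 009 was the lowest and B6 015 the highest mouse for both genes, and B6 010 lay within the NZO range. The log2 fold change of Saa2 was -1.29 (SE 0.54, 95% interval -2.53 to -0.04, limma adjusted p = 0.166) and -0.83 without B6 015 (adjusted p = 0.283). Saa2 deviated from the strain means almost exactly as the mean of the Saa1 and Saa2 probes did (Pearson r = 0.999 over 8 mice, a description, since Saa2 is part of that mean and both probes share every array). The 2 genes are close paralogues, and whether each probe also reads the other transcript was not tested.

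The 250 bases in front of the 2 genes are shown because the genes varied together across the 8 mice. They are from RefSeq (GRCm38.p6) and end at the base before the transcript start of that table. Saa1 is on the minus strand at chr7:46742981-46743230, which overlaps the wider span of the gene given above, and Saa2 is on the plus strand at chr7:46751583-46751832. The capitals mark the letters TTGCNNAA, a form of the C/EBP motif, searched on both strands.
Saa1: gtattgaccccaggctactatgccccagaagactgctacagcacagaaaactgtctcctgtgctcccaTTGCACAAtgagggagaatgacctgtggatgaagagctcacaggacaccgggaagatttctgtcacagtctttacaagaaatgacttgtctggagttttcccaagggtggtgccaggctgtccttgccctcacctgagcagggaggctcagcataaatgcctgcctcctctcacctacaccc
Saa2: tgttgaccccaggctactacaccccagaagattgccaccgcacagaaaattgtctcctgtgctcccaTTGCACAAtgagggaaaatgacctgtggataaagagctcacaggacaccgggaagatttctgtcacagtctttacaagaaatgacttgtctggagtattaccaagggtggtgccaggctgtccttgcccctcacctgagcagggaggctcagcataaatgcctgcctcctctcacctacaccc
In a global alignment 94.8% of 251 columns were identical, against 52.5% for Saa1 with Saa3 and 47.1% for Saa1 with Saa4. The marked letters began 182 bases before the start in Saa1 and 183 in Saa2. TTGCNNAA was found in this window of 7 of the 8 members that had one (Saa1, Saa2, Saa3, Saa4, Orm2, Hpx and Lcn2), and in 9.56% of all 32851 windows of the same length. The longer form TTNNGNAAT, which can overlap it, was found in 3 of 8 (Saa1, Saa2 and Orm2) and in 10.2% of all windows, and a form of the NF-kB motif (GGG and TTCC with 3 bases between them) in 0 of 8 and in 4.65%. The letters searched were chosen with the values known, and a match describes the letters in the window and is not evidence of binding.

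Saa3, the form made by macrophages and adipocytes as well as by liver, had a level of 1.18, 0.56, 0.04 and 0.54 in NZO 007, 003, 009 and 011, and of 1.48, 0.96, 2.31 and 1.37 in B6 011, 010, 015 and 009. NZO 007, the highest NZO mouse, was above B6 010, and the other 15 pairs of mice had NZO below B6. Its log2 fold change was -0.95 (SE 0.32, 95% interval -1.69 to -0.20, limma adjusted p = 0.0953) and -0.69 without B6 015 (adjusted p = 0.168). Saa4, the constitutive form, ranged from 5.38 to 5.89 in NZO and from 5.40 to 7.0 in B6. B6 015 alone held the upper end, and the log2 fold change of -0.42 (SE 0.32, limma adjusted p = 0.443) was -0.09 without it (adjusted p = 0.796).

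Orm1 and Orm2 encode the alpha-1 acid glycoproteins, lipocalins that carry small lipophilic molecules in plasma. They are neighbours on chromosome 4, at chr4:63344556-63348163 and chr4:63362449-63365877 (GRCm38.p6). Both were lower in NZO, by amounts close to the fold limit. The level of Orm1 was 6.02, 6.27, 5.99 and 6.11 in NZO 007, 003, 009 and 011, and 6.82, 6.55, 7.48 and 6.62 in B6 011, 010, 015 and 009. The 4 NZO mice lay within 0.28 of each other and all below the lowest B6 mouse. The log2 fold change was -0.77 (SE 0.20, 95% interval -1.24 to -0.30, limma adjusted p = 0.0401), a 1.70-fold higher signal in B6.

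The level of Orm2 was 6.50, 6.49, 6.31 and 6.45 in NZO 007, 003, 009 and 011, and 7.09, 6.85, 7.74 and 6.90 in B6 011, 010, 015 and 009. The strains were again apart, and B6 015 was again the highest mouse. The log2 fold change was -0.71 (SE 0.20, 95% interval -1.16 to -0.26, limma adjusted p = 0.0472). Without B6 015 the difference was -0.56 in Orm1 (adjusted p = 0.0261) and -0.51 in Orm2 (adjusted p = 0.0279), so that the adjusted p stayed under its threshold but the size was under the fold limit and neither was called. Leaving out any other mouse but B6 010 moved the adjusted p past the threshold, to at most 0.0891 in Orm1 and 0.103 in Orm2. Both calls were also lost with slide as a random block (adjusted p = 0.0507 and 0.0573) and as a fixed block (0.381 and 0.337).

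The probes of the 2 genes are shown because the genes are paralogues. Each lies in a stretch of the transcript with 1 open reading frame, beginning at base 320 in Orm1 and at base 396 in Orm2. The Orm1 probe spans chr4:63006483-63007090 on mm9, the build of the array files, and so bridges an intron.
Orm1: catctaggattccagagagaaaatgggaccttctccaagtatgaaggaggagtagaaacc
Orm2: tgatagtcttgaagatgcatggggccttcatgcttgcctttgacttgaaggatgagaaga
Orm3, a further member of the family that was among the other positive acute-phase genes, was lower in NZO by a wider margin. Its level was -2.55, -2.71, -2.90 and -2.58 in NZO 007, 003, 009 and 011, and -1.15, -1.18, 1.04 and -1.17 in B6 011, 010, 015 and 009. B6 015 was more than 2 units above every other mouse, and the strains did not overlap. For Orm3 the log2 fold change was -2.07 (SE 0.48, limma adjusted p = 0.0233) and -1.52 without B6 015 (adjusted p = 0.000307). The call of Orm3 was lost with normexp, no filter on dim probes, the mouse number as a block and the methods' t-test. Slide as a fixed block and the second scan day alone ended the call as well. It was also lost without NZO 003, 009 or 011. Whether the 3 probes read each other's transcripts was not tested. RefSeq gave the 250 bases in front of Orm2 (GRCm38.p6, plus strand, chr4:63362199-63362448), where TTGCNNAA in capitals began 120 bases before the start.
Orm2 upstream: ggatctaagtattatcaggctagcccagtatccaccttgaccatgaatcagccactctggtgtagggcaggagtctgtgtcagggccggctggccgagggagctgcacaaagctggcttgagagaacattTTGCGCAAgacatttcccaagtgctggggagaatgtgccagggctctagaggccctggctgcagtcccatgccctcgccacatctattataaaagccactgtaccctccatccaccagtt

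Haptoglobin (Hp, chr8:109575128-109579172, GRCm38.p6) binds free haemoglobin, and hemopexin (Hpx, chr7:105591611-105600116) binds free haem. Neither was called, and both had narrow intervals. The level of Hp was 10.15, 10.15, 10.08 and 10.19 in NZO 007, 003, 009 and 011, and 10.18, 10.17, 10.46 and 10.30 in B6 011, 010, 015 and 009. Its fold change on the log2 scale was -0.13 (SE 0.10, 95% interval -0.36 to 0.09, limma adjusted p = 0.417) and -0.07 without B6 015. With quantile normalization it was -0.30 (limma adjusted p = 0.0418) and with the deposited table -0.36 (0.0477), both under the fold limit. The level of Hpx lay between 9.81 and 10.01 in NZO and between 9.80 and 10.29 in B6. Its log2 fold change was -0.08 (SE 0.13, 95% interval -0.37 to 0.22, limma adjusted p = 0.746), and without B6 015 the sign turned, to 0.03 (adjusted p = 0.864). For both genes the interval lies inside the fold limit of 0.7 in either direction.

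Lipocalin 2 (Lcn2, chr2:32384637-32387739, GRCm38.p6) captures bacterial siderophores and so withholds iron from microbes, and it is made by neutrophils as well as by hepatocytes. It had the widest strain difference of the 10 members in the fit on all 8 arrays. Its level was 0.41, -0.43, -0.41 and -0.68 in NZO 007, 003, 009 and 011, and 2.29, 1.13, 4.28 and 2.0 in B6 011, 010, 015 and 009. Every NZO mouse was below every B6 mouse, the nearest pair being NZO 007 and B6 010, and the B6 mice were spread over 3.15 units. The means were -0.28 ± 0.48 in NZO and 2.43 ± 1.33 in B6 (SD, n = 4 each), a log2 fold change of -2.70 (SE 0.61, 95% interval -4.10 to -1.31, limma adjusted p = 0.0203), or a 6.51-fold higher signal in B6. Without B6 015 the difference was smaller and its error too, at -2.08 (SE 0.35, adjusted p = 0.00897). The call was lost without NZO 003, 009 or 011, with an adjusted p of 0.0539, 0.0506 and 0.0551 at differences of -2.65, -2.66 and -2.57. It was also lost with slide as a fixed block (-3.14, adjusted p = 0.262), with the mouse number as a block (-2.69, adjusted p = 0.0575), with the methods' t-test (adjusted p = 0.123) and with no filter on dim probes (adjusted p = 0.0511).

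The 250 bases in front of Lcn2 (RefSeq, GRCm38.p6, minus strand, chr2:32387740-32387989) are shown for comparison with the genes above, with TTGCNNAA in capitals from 216 bases before the start.
Lcn2: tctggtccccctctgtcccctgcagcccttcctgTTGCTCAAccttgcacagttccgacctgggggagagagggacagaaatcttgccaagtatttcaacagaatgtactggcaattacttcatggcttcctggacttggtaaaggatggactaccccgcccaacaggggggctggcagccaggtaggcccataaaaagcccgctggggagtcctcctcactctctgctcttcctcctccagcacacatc
Because neutrophils hold lipocalin 2, their markers were read in the same mice. Of 8 neutrophil markers 7 were tested (all but Ngp), 2 were called higher in NZO (Camp, 1.85, and Ly6g, 1.66) and 0 lower. The marker with the highest signal, S100a9, differed by -0.20 (adjusted p = 0.826). S100a8 and Elane differed by -0.03 and 0.16. The granule genes Mpo and Ltf were well above background on 4 NZO arrays and on 2 B6 arrays, so that they entered the test through NZO alone, and they differed by 2.17 and 1.61 without passing it (adjusted p = 0.127 and 0.0903). The summed signal of all 8 markers (Ngp included), in multiples of the 75th percentile, was 11.7, 15, 11.3 and 14.9 in NZO 007, 003, 009 and 011, and 10.9, 5.52, 13.1 and 6.91 in B6 011, 010, 015 and 009. Among B6 mice the order of these sums (015, 011, 009, 010) was that of Lcn2. Among NZO mice it was not, with sums in the order 003, 011, 007, 009 and Lcn2 in the order 007, 009, 003, 011. Across strains Lcn2 and the neutrophil markers called lay in opposite directions, and the part of neutrophils in the result was not tested. Without B6 015 the calls of Camp (2.25) and Ly6g (1.75) held, and Mpo (2.96) and Ltf (2.08), which entered through NZO alone, were called too.

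Serum amyloid P component (Apcs, chr1:172893961-172895054, GRCm38.p6) is a pentraxin that binds amyloid fibrils, chromatin and bacterial surfaces. It was the member that was higher in NZO. Its level was 5.58, 5.36, 5.80 and 5.04 in NZO 007, 003, 009 and 011, and 3.58, 3.55, 4.54 and 3.27 in B6 011, 010, 015 and 009. Every NZO mouse was above every B6 mouse, and the B6 mouse nearest to NZO was again B6 015. The means were 5.45 ± 0.33 in NZO and 3.73 ± 0.55 in B6 (SD, n = 4 each), a log2 fold change of 1.71 (SE 0.29, 95% interval 1.06 to 2.37, limma adjusted p = 0.00488), or 3.28-fold. Without B6 015 it was 1.98 (SE 0.20, adjusted p = 0.000896), and leaving out any 1 of the 8 mice kept the call, with differences between 1.56 and 1.98. The call was lost with slide as a fixed block (1.31, adjusted p = 0.257) and with the mouse number as a block (2.0, adjusted p = 0.107).

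The Apcs probe begins at a start codon in the transcript, given in capitals, and so reads the first codons of the protein (mm9, minus strand, chr1:174824959-174825018).
Apcs: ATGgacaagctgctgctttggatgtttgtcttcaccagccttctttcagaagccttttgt
The 250 bases in front of the gene (RefSeq, GRCm38.p6, minus strand, chr1:172895055-172895304) are shown for comparison with those above. TTGCNNAA was not found in this window, and a link between these letters and the direction of a difference was not tested. The capitals mark TTCNNNGAA, a form of the STAT motif, which began 244 bases before the start and was found in 1 of 8 member windows and in 7.02% of all windows.
Apcs upstream: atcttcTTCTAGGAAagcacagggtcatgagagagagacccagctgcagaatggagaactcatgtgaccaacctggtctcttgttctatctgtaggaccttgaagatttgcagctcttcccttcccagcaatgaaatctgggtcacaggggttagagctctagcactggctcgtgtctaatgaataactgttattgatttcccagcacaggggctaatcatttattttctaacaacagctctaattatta

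**Figure D2:**
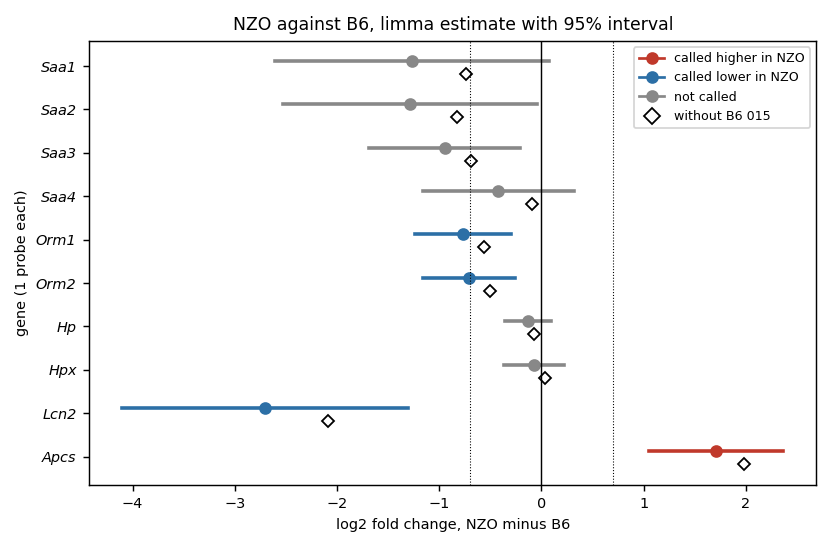
Log2 fold change of each gene (NZO minus B6) from limma with its 95% interval on all 8 arrays (circles and bars), and the estimate without B6 015 (open diamonds). Dotted lines are the fold limit of 0.7. Apcs stays right of the limit and Lcn2 left of it with and without this mouse, while Orm1 and Orm2 move inside the limit without it.

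The deviations of the mice from their strain means were compared between the members. After the mean of its strain was taken from each value, Pearson's correlation with the mean of Saa1 and Saa2 over 8 mice was 0.92 for Hp, 0.83 for Orm1, 0.82 for Orm2, 0.80 for Saa3 and for Saa4, 0.79 for Hpx, 0.77 for Lcn2 and 0.39 for Apcs. By rank the values were lower for most, with Spearman's rho of 0.81 for Hp, 0.74 for Orm1, 0.67 for Orm2, 0.76 for Saa3, 0.55 for Saa4, 0.62 for Hpx, 0.31 for Lcn2 and 0.14 for Apcs. These values share arrays and B6 015 is the farthest point in most of them, and no test was made of them. In NZO the order of mice was not shared by all members. Lcn2 was lowest in NZO 011 and highest in NZO 007, and Saa1 was lowest in NZO 009 and highest in NZO 003. Among NZO mice the lowest value was that of NZO 009 in 7 of 10 members (23.8% of tested probes) and the highest that of NZO 003 in 5 (35.5% of tested probes). Outside the members, the genes whose levels were most like the mean of Saa1 and Saa2 over the 8 mice were Myh9 (r = 0.95), Cyp3a13 (0.94), Ifrd2 (0.93), Ctss (0.93) and an unnamed long non-coding transcript on chromosome 9 (0.93). With the strain means removed they were Psmb9 (r = 0.99), 2 unnamed long non-coding transcripts (0.97 each), Il2rg (0.96) and Spn (0.95), and no gene was on both lists. With 8 mice and 27651 probes, values of this size are descriptions.

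**Figure D3:**
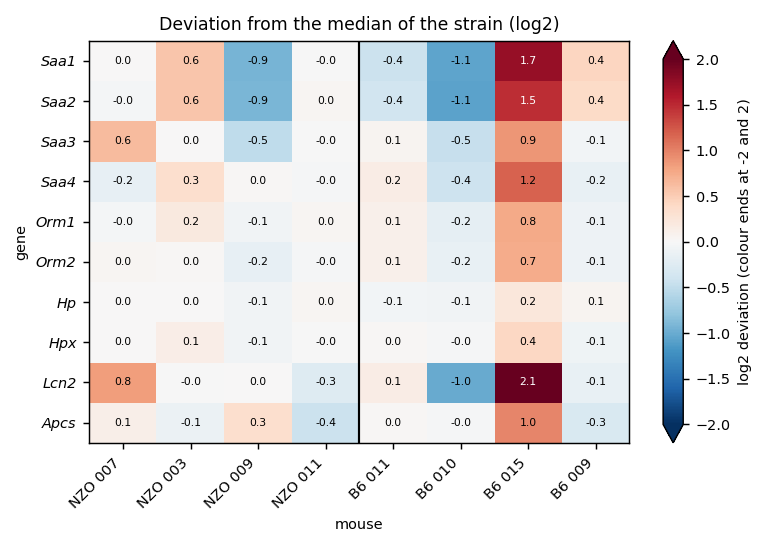
Deviation of each mouse from the median of its strain, in log2 units, for the 10 genes (rows) and 8 mice (columns). The column of B6 015 is positive in every row, and reaches 2.1 in Lcn2 and 1.7 in Saa1.

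The 8 arrays came from 5 slides and 2 scan days. On the slide that held both strains (NZO 003 with B6 010 and 015), the difference was 1.31 in Apcs, -3.14 in Lcn2, -0.74 in Orm1 and -0.81 in Orm2. With slide as a fixed block, the strain difference comes from this slide alone and so rests on 1 NZO mouse. On the first scan day (NZO 003, 009 and 011 with B6 010 and 015) it was 1.36, -3.21, -0.89 and -0.88 in the same order. On the second (NZO 007 with B6 009 and 011) it was 2.16, -1.73, -0.70 and -0.49. The directions of these 4 genes were the same in each, whereas only Apcs on the second day passed the test (limma adjusted p = 0.0453), with a lone array assumed to vary like the others wherever a strain had 1. For Saa1 the differences were -0.78, -1.47 and -1.0, for Saa2 -0.74, -1.40 and -1.14 and for Saa3 -1.07, -1.25 and -0.24.

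The other genes of the pathway were read from the same test, each gene by its brightest tested probe. Of 8 inducing cytokines, 2 passed the filter on dim probes (Il1b and Il11), and Il6, Il1a, Tnf, Osm, Lif and Il22 were not well above background on all arrays of either strain. Il1b was called lower in NZO, with a level of -2.73, -2.71, -2.73 and -3.31 in NZO 007, 003, 009 and 011, and of -2.23, -0.74, -1.48 and -2.12 in B6 011, 010, 015 and 009. Its highest mouse was B6 010, the B6 mouse lowest in most members. The fitted difference was -1.23 (SE 0.33, limma adjusted p = 0.0413) and -1.17 without B6 015 (adjusted p = 0.0980). The call of Il1b was also lost with normexp, quantile normalization, no filter on dim probes, the mouse number as a block and the methods' t-test. The same held with slide as a fixed block, on the slide with both strains alone and on the second scan day alone. Leaving out any 1 NZO mouse ended the call too.

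Of 7 cytokine receptors, 1 was called higher (Lifr, the leukemia inhibitory factor receptor, 0.82) and 2 lower (Osmr, the oncostatin M receptor, -0.80, and Il1r1, the interleukin 1 receptor, -1.17). All 3 tested probes of Lifr lay between 0.79 and 0.89 and 1 of them was called, and it was also the gene of the list with the highest signal. The interleukin 6 receptor subunits Il6ra and Il6st differed by -0.02 and -0.04. Without B6 015 the call of Osmr held (-0.84), and Lifr (0.78, adjusted p = 0.0641) and Il1r1 (-1.21, adjusted p = 0.0509) kept differences of about the same size without passing the test. Of 12 kinases, transcription factors and inhibitors behind the receptors, 0 were called by limma and 0 met the unadjusted threshold. Their median was -0.24, with 8 of 12 below 0. With the deposited table it was -0.425 with 12 of 12 below 0, beside -0.15 for all tested probes. The list includes Stat3 (-0.25, and -0.66 at its second tested probe), its feedback inhibitor Socs3 (-0.23), Cebpb (-0.36) and Cebpd (-0.31). Rela, the gene with the highest signal, differed by 0.13.

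Of 24 other positive acute-phase genes, 22 were tested (Serpina1b had no probe of that name and A2m was not above background). 3 were called higher in NZO and 1 lower, the latter being Orm3. Those higher were Fgl1, a hepatocyte-secreted protein of the fibrinogen family, by 0.98 (SE 0.18, adjusted p = 0.00888, all 3 probes called), Fga, the fibrinogen alpha chain, by 0.87 (SE 0.15, adjusted p = 0.00655, the second probe at 0.50 and not called), and Mbl2, a mannose-binding lectin of the complement system, by 0.77 (SE 0.09, adjusted p = 0.000882). These 3 calls were lost with slide as a fixed block and with the mouse number as a block. With the methods' t-test, 1 probe of the list was called higher. The beta and gamma chains of fibrinogen, Fgb and Fgg, differed by 0.03 and 0.18 and were not called. The median of the list was 0.03, beside 0.01 for all tested probes, and it was below 0 with normexp (-0.01), quantile normalization (-0.06) and the deposited table (-0.20). B6 015 was the highest B6 mouse in 16 of these 22 genes. The metallothioneins Mt1 and Mt2 had wide spreads in both strains and differed by 1.81 and 1.72 (adjusted p = 0.107 and 0.234). The second tested probe of Mt1 gave 0.64, under the fold limit. Without B6 015, 4 genes were called higher, which were Mt1 (2.29, adjusted p = 0.0412), Fgl1 (1.14), Fga (0.92) and Mbl2 (0.78), and Orm3 was called lower. The gene with the highest signal, Serpina1a, differed by 0.25 (adjusted p = 0.107).

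Of 9 negative acute-phase genes 0 were called by limma and 0 met the unadjusted threshold, while the estimates were above 0 in 9 of 9 with a median of 0.26, in 7 of 9 with normexp or quantile normalization, and in 4 of 9 with the deposited table (median -0.00). The nearest to a call was Serpina6, the corticosteroid-binding globulin, at 0.69 (SE 0.10, adjusted p = 0.00274), just under the fold limit, and without B6 015 it was called at 0.71 (adjusted p = 0.00804). Alb, which had the highest signal, differed by 0.27 (adjusted p = 0.206). B6 015 was the highest B6 mouse in 8 of 9. Of 9 genes for the uptake and breakdown of haem, haemoglobin and lipocalin 2, Hmox1, haem oxygenase, was called lower at -0.93 (SE 0.15, adjusted p = 0.00464), and at -0.86 without B6 015 (adjusted p = 0.0156), while its second tested probe gave -0.24. Lrp1, the hemopexin receptor and the gene of the list with the highest signal, differed by -0.06 at its brightest probe, while 1 of its 3 tested probes was called lower and the probes ranged from -0.89 to -0.06. The other 7 genes were not called.

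Markers of other liver cells moved between the strains too. Of 5 macrophage and Kupffer cell markers 3 were called lower in NZO (Marco, -1.83, Clec4f, -1.13, and Cd5l, -0.71, the gene with the highest signal). Without B6 015 Marco (-1.50) and Clec4f (-1.03) were called, and Cd5l, at -0.65, was not. Lyz2 of the same list had its estimate on the other side (0.41, adjusted p = 0.110), and Cd68 differed by -0.42, under the fold limit. The summed signal of the 5 markers was 80.0, 81.0, 71.5 and 72.5 in NZO 007, 003, 009 and 011, and 143, 127, 172 and 120 in B6 011, 010, 015 and 009, with no overlap and with B6 015 highest. This sum moved in the same direction as Lcn2, Orm1, Orm2 and Il1b, and its part in those results was not tested. Of 4 red cell markers 2 were called higher in NZO (Hba-a1, 1.0, with the highest signal, and Alas2, 0.90) and 0 lower. Without B6 015 the call of Alas2 held (0.84) and that of Hba-a1 did not (0.94, adjusted p = 0.0531). Of 3 leukocyte markers 1 was lower in NZO (Itgax, -2.04, adjusted p = 0.0358). It was well above background on 4 B6 arrays and 2 NZO arrays, so that it entered the test through B6 alone, and the call was lost without B6 015 (-1.85, adjusted p = 0.0909). The leukocyte marker with the highest signal, Cd3e, differed by 0.33. Of 6 adipocyte markers, Adipoq and Plin1 were not above background on any array, Lep was on 3 of 8, and of the 3 tested 0 were called, with 0 at the unadjusted threshold. The one with the highest signal, Car3, which hepatocytes also express, differed by 0.47 (adjusted p = 0.0134), under the fold limit. The summed hepatocyte markers were 3871, 3917, 3854 and 3789 in NZO 007, 003, 009 and 011, and 3203, 3766, 3652 and 3002 in B6 011, 010, 015 and 009.

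**Figure D4:**
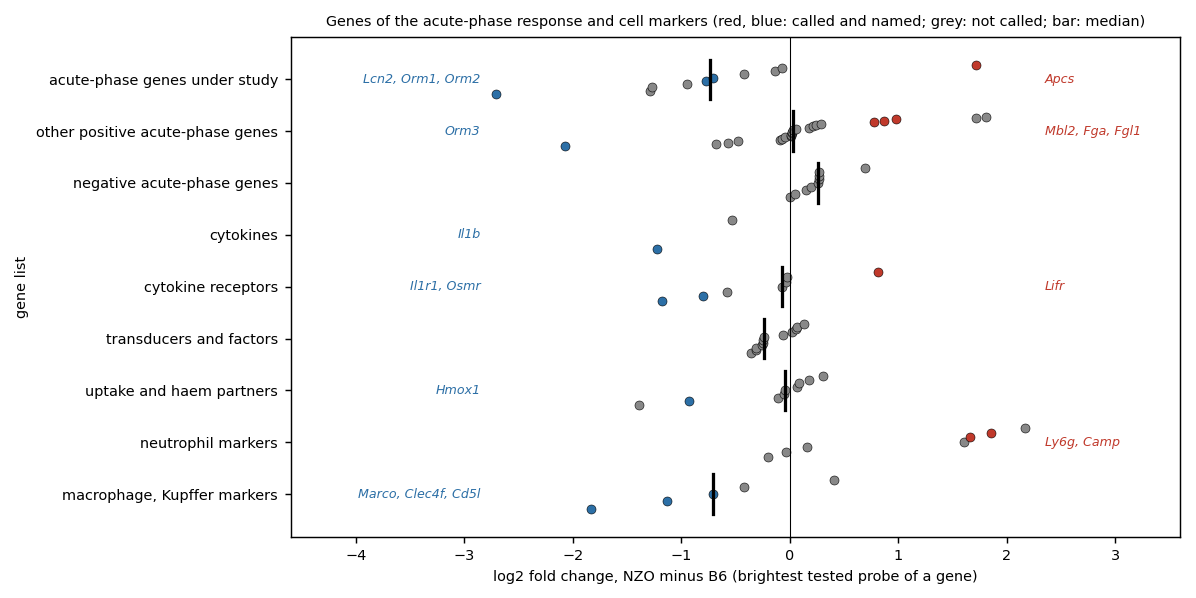
Log2 fold change (NZO minus B6) of the tested genes of each list, 1 point per gene, with called genes in colour and named at the side, and the median of the list as a bar (not drawn for cytokines and neutrophil markers, where it would rest on genes above background in 1 strain). The median is -0.74 for the 10 genes under study, 0.03 for the other positive acute-phase genes and 0.26 for the negative ones (-0.99, -0.20 and -0.00 with the deposited table).

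**Figure D5:**
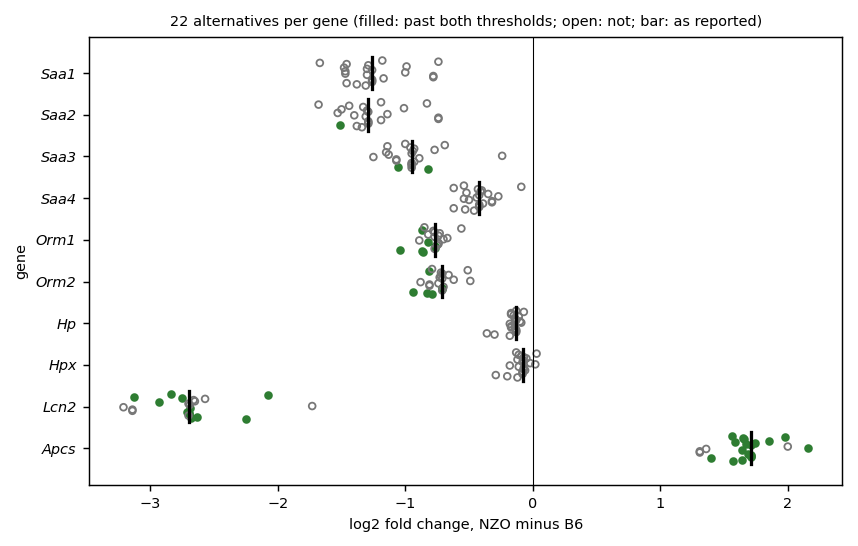
Log2 fold change of each gene under 22 alternatives of processing, design and left-out mice (points; filled where both thresholds were passed), with the reported value as a bar. Apcs passed in 18 of 22 and Lcn2 in 12 of 22, and the direction of both was the same in all 22.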

How the data were processed

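Total RNA of liver from 4 NZO and 4 B6 mice was hybridised to 1-colour Agilent arrays, 1 array per mouse. The deposited scanner output holds intensity values, which per the file headers came from Agilent Feature Extraction 11.0.1.1 (the submitters' processing notes name 9.1), and the processed signal is the intensity after background subtraction and correction of trends within the array. The authors' table for all arrays, named normalized, equalled the raw median intensity on 59305 of 59305 spots per array (tolerance 0.01).

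Control spots and spots the scanner software marked as outliers (96 to 137 on an array) were removed, log2 was taken, each array's 75th percentile (119 to 142 in NZO and 136 to 159 in B6) was subtracted, and spots of a probe were averaged. Of the probes, 50.4% to 60.1% were well above background per array and 0 spots were saturated. Probes well above background on 4 of 4 arrays of a strain were tested (27651) with limma 3.58.1 (R 4.3.3, with data.table in its version 1.17.8) without a block. Tables and plots were made with Python 3.11.15, pandas 2.3.3 and matplotlib 3.10.9. In simulated data of 27651 probes, 59% of 100 planted changes of 1 log2 unit and 91% of 100 of 2 units were recovered, with 13 unchanged probes called. The simulated noise was independent between probes and arrays. It held no effect of slide or scan day and no mouse that moved many genes together, so these shares may not hold for the real arrays. The number of arrays limits the precision. A p-value sets the strain difference against the variation among mice of the same strain, which includes that of array and slide. Only the slide named above held both strains, so strain and slide cannot be fully told apart.

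Named were all members, every called gene of the other lists (the 4 largest where more were called), the gene of each list whose probe had the highest mean signal (which does not rank transcripts), and the 5 genes most like Saa1 and Saa2 in each of 2 measures. Other genes named (such as Stat3, Fgb, Mt1, Mpo and Serpina6) were chosen after their values were seen. The members and lists were chosen with earlier results of these data known. NZO sequence under the probes was not analysed here. Alternatives were the background correction, the normalization, the deposited table, the filter on dim probes, the summary of probes, slide, scan day, mouse number, the methods' t-test and leaving out each mouse.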

Additional observations from a re-analysis of the deposited data

Results flagged for a closer look

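Of 190 sets of 4 mice (each tested gene of the lists in each strain), 15 had 1 mouse farther from the other 3 than a gap test at the 95% level allows, where chance gives about 1 in 20. None of the 10 members was among them. In B6, mouse 015 stood above the rest in Fgb (10.70), Itih3 (8.45), Serpina3n (5.38), Mt1 (5.68), Orm3 (1.04) and Itgax (-1.18), the first 5 of which are positive acute-phase genes. In B6, mouse 010 stood below the rest in Socs3 (0.32) and Slc22a17 (-0.83), mouse 009 in Nfkbia (3.76) and mouse 011 in Tat (5.77). In NZO, mouse 009 stood above the rest in Nfkbia (4.14) and below them in Serpina1a (10.70), mouse 011 stood below the rest in Il1b (-3.31) and Serpina6 (5.61), and mouse 007 stood above them in Cd68 (1.79).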

How the results depend on the processing

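In all 22 alternatives Apcs stayed higher in NZO (1.31 to 2.16, called in 18, adjusted p up to 0.257) and Lcn2 lower (-3.21 to -1.73, called in 12, adjusted p up to 0.329), while Orm1 and Orm2 stayed lower and lost their calls in 15 and 16. Saa2 was called with the deposited table (-1.51), and Saa3 with it (-1.06) and with normexp (-0.82). Hpx turned to 0.02 on the second scan day and to 0.03 without B6 015, with -0.13 to 0.03 over the mice left out.

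The reported counts were 1200 higher and 1463 lower over all probes, and 1 and 3 among the members. Normexp gave 615 higher and 583 lower over all probes. The deposited table, which is not scaled between arrays and moved the median of all probes to -0.15, gave 575 higher (28.8% of its calls, against 45.1% as reported) and 5 members lower. With no filter on dim probes, 0 members were lower. The random slide block left 1 member lower. The fixed slide block gave 498 higher over all probes and no member (0 higher and 0 lower), and the slide with both strains alone 277 and 650 (29.9% higher) and 0 and 0 members. The first scan day gave 800 lower and 0 and 0 members, the second 278 and 554 (33.4% higher) and 0 members lower. The fixed slide block had 33.6% of calls higher. The methods' t-test gave 890 lower and 0 members lower (1293 and 1611 over all probes unadjusted). Cuts to fewer arrays also cut the power. Elsewhere the cause was not tested.

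Leaving out each mouse gave 1056 to 1219 higher and 1221 to 1465 lower over all probes, 1 member higher each time and 0 to 3 members lower (0 without NZO 003, 009 or 011, and 1 without NZO 007, B6 009, B6 011 or B6 015).

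Mouse numbers 009 and 011 occur in both strains. Their deviations correlated at -0.26 and -0.00, and nothing says that a number is shared by design, so they were not taken as pairs. With the mouse number as a replicate block, 72 probes were higher and 133 lower (35.1% higher), with 0 and 0 members.

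Among the other lists, the positive acute-phase genes had 0 to 6 probes called higher (5 as reported) and 0 to 2 lower (1). The receptors had 0 to 3 higher (1) and 0 to 4 lower (2). The partners had 0 to 2 lower (2) and the cytokines 0 to 1 lower (1). The kinases and factors behind the receptors had 0 to 1 lower (0), and the negative acute-phase genes 0 to 1 higher (0).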
